A study of Homo sapiens with 6 samples.

Results

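The MYC and MAX network is a family of DNA-binding proteins that set how strongly growth genes are transcribed. MYC and its relatives MYCN and MYCL bind DNA only as a pair with MAX, and the pair activates genes of ribosome assembly, nucleotide synthesis and the cell cycle through E-box sites. The MXD proteins, MXI1 and MNT also pair with MAX at these sites and recruit SIN3 and histone deacetylase corepressors, while MLX pairs with some of these antagonists and with the glucose-sensing factors MondoA (MLXIP) and ChREBP (MLXIPL). MYC messenger RNA is abundant in erythroid leukemia cells and is known to fall as such cells mature.

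The network was examined in K562, an erythroid leukemia cell line grown in suspension, after an overnight treatment with 10 µM of 21H7, a cell-permeable iron chelator (Chelator, 3 libraries), or with an equal volume of its solvent DMSO (DMSO, 3 libraries). All 6 libraries came from the same line in the same medium, so a single line stands behind every value. The labels number the samples of a group but do not say that they came from separate cultures, so p-values measure the spread between these samples, which may be technical. The 10 genes MYC, MYCN, MYCL, MAX, MXD1, MXD3, MXD4, MXI1, MNT and MLX were taken by name. They came from the 62252 genes of GENCODE release 44 that had a transcript in the deposited files. Salmon's estimated counts and TPM values (a level corrected for transcript length and library total) were summed over the transcripts of each gene.

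The libraries held 78.6 to 90.4 M estimated counts in DMSO (M, 1e+06 counts) and 85.4 to 101 M in Chelator. The mean fragment was 252 to 264 bases long in DMSO and 200 to 218 bases in Chelator, so the effect of treatment and that of fragment length cannot be told apart. In each group 1 library stood apart. By the mean chi-square of the counts per gene, DMSO 2 was at 34.6 and 49.7 from the other DMSO libraries, which were 7.06 from each other, and MGA, TRRAP, HUWE1 and EP400 were at their highest there. Chelator 1 was at 22.8 and 24.6 from the other Chelator libraries, which were 5.74 apart. Of 8 erythroid markers, 8 were above 10 TPM in every library, whereas 6 of 10 markers of other cell types stayed under 1 TPM. Among those others, the epithelial marker EPCAM lay between 45.6 and 68.8 TPM and LYZ, a marker of myeloid cells, between 11.3 and 19.6 TPM, and their part in the results was not tested.

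After iron chelation, the mRNAs of the MXD antagonists rose while those of MYC, MAX and MLX fell. MXD1 rose most, to 2.35 times its DMSO level, and MXD4, MXD3, MYCL and MXI1 rose by smaller factors of 1.41 to 1.57. MAX fell to 0.736, MYC to 0.822 and MLX to 0.841 times the DMSO level. MNT did not pass the test, and MYCN had almost no counts. MXI1 did not pass without the correction for average transcript length, and MLX did not pass without DMSO 1, DMSO 3 or Chelator 2. MXD3 shares much of its sequence with neighbouring genes, so its counts are uncertain.

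Of the 10 genes, 9 had the total of more than 10 counts needed for the test. With DESeq2's Wald test and Benjamini-Hochberg adjustment over all genes, 5 were higher and 3 were lower in Chelator at an adjusted p under 0.05. Over the whole transcriptome 37.7% of genes passed in either direction, 19.5% as higher and 18.3% as lower. Of these, MXD1 alone also changed by more than 1 on the log2 scale, a rule that 10.8% of all genes met, 8.18% as higher and 2.6% as lower, but DESeq2's Wald test against an absolute log2 fold change of 1 called 0 members. The same 9 genes had a median log2 fold change of 0.49, which is the value of MXI1, against 0.016 for all genes. That median was 0.16 without the length correction and 0.30 after centring on the mean log2 change of all genes. The values of the groups did not overlap for 5 higher and 3 lower members, which was the case for 49.2% of all genes, 25.5% as higher and 23.7% as lower. Without the DMSO 2 library, and likewise without Chelator 1, 5 were again higher and 3 lower.

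MYC, the central activator of the network (GRCh38, chr8:127735434-127742951, plus strand), had the highest level of the 10 genes. Its normalized counts, which are corrected for depth and average transcript length, were 24506, 22074 and 24737 in DMSO and 17983, 19620 and 21048 in Chelator. Every Chelator library lay below every DMSO library, with the highest Chelator value close to the lowest DMSO value. The log2 fold change was -0.28 ± 0.082 (SE, DESeq2 adjusted p = 0.0022). Centring on the mean log2 change of all genes, which moved the median of all genes from 0.016 to -0.18, gave MYC a log2 fold change of -0.48.

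MYCL, the lung-type relative of MYC (chr1:39895428-39902256, minus strand), moved the other way. It had 1271, 1229 and 1219 normalized counts in DMSO and 1937, 1853 and 1851 in Chelator. The libraries of each group lay close together and far from the other group. Its log2 fold change was 0.60 ± 0.088 (SE, DESeq2 adjusted p = 1.1e-10). MYCN, the neuronal relative (chr2:15940550-15947007, plus strand), had 0 counts throughout DMSO and 2, 3 and 0 counts under chelation, and was too low for a test.

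MAX, the partner that MYC and the antagonists share (chr14:65006174-65102695, minus strand), showed the largest fall among the members. Its normalized counts were 4309, 3828 and 4085 in DMSO and 2704, 3039 and 3248 in Chelator. No Chelator library reached the lowest DMSO library. The log2 fold change was -0.44 ± 0.093 (SE, DESeq2 adjusted p = 1.23e-05), and -0.27 without the correction for average transcript length. MAX lies beside FNTB, a farnesyltransferase subunit, and 14.6% of its 31-base stretches also occur in other transcripts, chiefly those of FNTB and of the read-through gene CHURC1-FNTB. FNTB was at 1494 ± 66.2 normalized counts in DMSO and 1316 ± 75.1 in Chelator (SD, n = 3) and did not pass (DESeq2 adjusted p = 0.132). CHURC1-FNTB rose from 28.2 ± 17.3 to 207 ± 31.1 normalized counts (SD, n = 3, DESeq2 adjusted p = 2.22e-12). Their part in the MAX value was not tested.

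**Figure D1:**
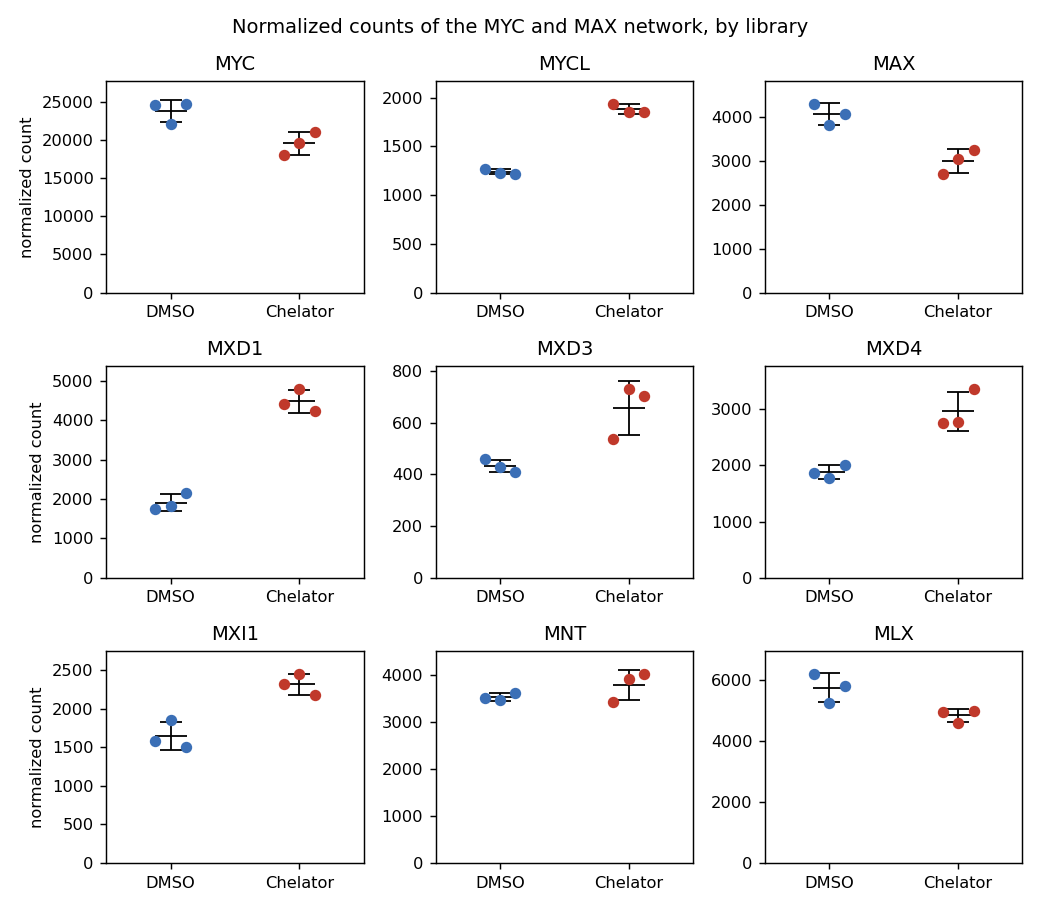
Normalized counts of the 9 tested genes in each DMSO library (blue) and Chelator library (red), on linear axes from 0 with a scale for each gene. Black marks give the mean and SD of 3 libraries; the groups overlap for MNT alone.

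The MXD genes encode repressors, and MXD1 is known to rise as many cell types stop dividing and mature. MXD1 (chr2:69897688-69942945, plus strand) had 1753, 1812 and 2161 normalized counts in DMSO and 4411, 4796 and 4236 in Chelator. The lowest Chelator library was far above the highest DMSO library. Its log2 fold change, 1.23 ± 0.10 (SE, DESeq2 adjusted p = 1.08e-32), was the largest of the members in either direction.

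MXD4 (chr4:2247432-2262109, minus strand) had 1873, 1771 and 2011 normalized counts in DMSO and 2751, 2769 and 3364 in Chelator. All Chelator values were higher, with Chelator 3 above the other two. Its log2 fold change was 0.65 ± 0.11 (SE, DESeq2 adjusted p = 5.41e-09). No 31-base stretch of its transcripts occurs in the searched transcripts of another gene.

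MXD3 (chr5:177301461-177312757, minus strand) had the lowest level of the tested members, with 459, 430 and 409 normalized counts in DMSO and 537, 731 and 703 in Chelator. The groups did not overlap, and Chelator 1 lay nearest to DMSO. Its log2 fold change was 0.60 ± 0.16 (SE, DESeq2 adjusted p = 4.93e-04), and 0.35 in a fit that took out GC content and length trends. MXD3 shares 40.8% of its 31-base stretches with other genes, chiefly its neighbours PRELID1 and RAB24, so its counts are uncertain. In Chelator PRELID1 fell to 0.704 times its DMSO level and RAB24 rose to 1.17 times (DESeq2 adjusted p = 8.72e-07 and 0.0397).

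MXI1 (chr10:110207605-110287365, plus strand), also called MXD2, had 1585, 1851 and 1502 normalized counts in DMSO and 2316, 2451 and 2181 in Chelator. Each Chelator library exceeded each DMSO library. The log2 fold change was 0.49 ± 0.10 (SE, DESeq2 adjusted p = 1.48e-05). This call rests on the correction for length, since the average effective length of its transcripts went from 1943 to 1542 bases, and without that correction the value was 0.16 with an adjusted p of 0.121 in DESeq2. After centring on the mean it was 0.30.

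MNT (chr17:2384073-2401104, minus strand), the antagonist that most cell types express throughout, had 3517, 3467 and 3615 normalized counts in DMSO and 3429, 3906 and 4022 in Chelator. Chelator 1 lay below every DMSO library and the other two lay above them. The log2 fold change was 0.10 ± 0.086 (SE, DESeq2 adjusted p = 0.402). It was -0.095 after centring on the mean and 0.28 with protein-coding transcripts alone, where the DESeq2 adjusted p was 0.0037.

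MLX (chr17:42567072-42573239, plus strand) had 6196, 5257 and 5799 normalized counts in DMSO and 4953, 4598 and 4966 in Chelator. The groups did not overlap, but DMSO 2 was close to the Chelator libraries. The log2 fold change was -0.25 ± 0.085 (SE, DESeq2 adjusted p = 0.0109), and -0.44 after centring on the mean. The call was lost without DMSO 1, DMSO 3 or Chelator 2, with DESeq2 adjusted p of 0.0705, 0.0518 and 0.0732. MLX shares 21.7% of its 31-base stretches, chiefly with its neighbour PSMC3IP, a recombination factor that rose from 1097 ± 157 to 2119 ± 194 normalized counts (SD, n = 3, DESeq2 adjusted p = 3.20e-13).

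**Figure D2:**
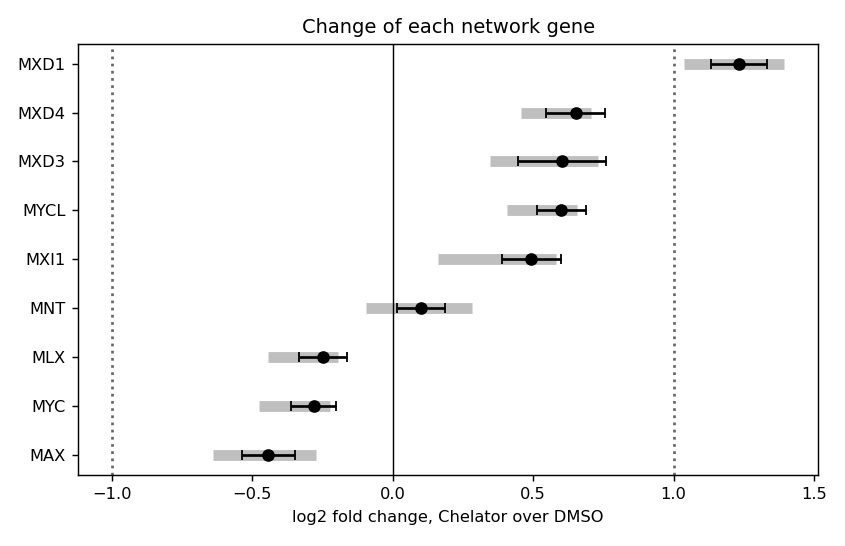
Log2 fold change of Chelator over DMSO for each tested gene (black points, bars ± SE), ordered by size, with dotted lines at the fold threshold. Grey bars span the values under 17 alternative settings; MNT is the gene whose bar crosses 0, and the MXD1 bar stays between 1.04 and 1.39.

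E-box sites were looked for in the promoters, since MYC family members are themselves known targets of E-box factors. RefSeq promoter windows on build GRCh38.p14, which run from 250 bases before to 50 bases after a gene start, were searched for CACGTG, which reads the same on both strands. It was found in 3 of 12 windows of the members and in 7.26% of 35116 windows in all. The shorter motif ACGTG, which every CACGTG holds, was found on either strand in 5 of 12 and in 21.4%. The 100 bases around each of the 3 E-boxes are shown because their genes rose, did not pass the test and fell, respectively, with the E-box in capitals and each written 5′ to 3′ on the strand of its gene. They lie at chr4:2262260-2262359 (minus strand), chr17:2401201-2401300 (minus strand) and chr17:42567000-42567099 (plus strand), with the E-box 232, 187 and 44 bases before the RefSeq start of the gene, which for MNT and MLX differs from the GENCODE start given above.
MXD4: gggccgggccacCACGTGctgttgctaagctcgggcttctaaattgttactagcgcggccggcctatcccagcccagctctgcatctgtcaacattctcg
MNT: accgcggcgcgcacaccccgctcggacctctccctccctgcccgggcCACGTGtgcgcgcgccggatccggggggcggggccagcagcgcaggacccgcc
MLX: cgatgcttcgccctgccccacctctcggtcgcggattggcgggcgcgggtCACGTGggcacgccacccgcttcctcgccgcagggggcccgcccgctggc

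Levels between genes were compared in TPM. In DMSO, MYC had 173 ± 5.86 TPM (SD, n = 3), MAX 71.0 ± 3.26 and MLX 37.9 ± 1.19. The antagonists followed, with MNT at 16.2 TPM, MXI1 at 12.4, MXD4 at 7.39, MXD1 at 5.57 and MXD3 at 4.42, and MYCL stood at 5.26. Neighbours in this order did not overlap between libraries except MNT with MXI1 and MXD1 with MYCL.

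In Chelator the order differed in its middle, where MXD1 stood above MXD4 on average. MYC was at 146 ± 14.0 TPM (SD, n = 3), MAX at 53.5 ± 5.90 and MLX at 32.6 ± 0.816. MNT at 17.8 TPM overlapped MXI1 at 17.6, and MXD1 at 13.4 overlapped MXD4 at 11.9, above MYCL at 8.12 and MXD3 at 6.86. The place of MAX depends on a 327-base transcript, MAX-209, and over transcripts of at least 500 bases MAX was at 36.6 TPM in DMSO, where its libraries overlapped those of MLX, and at 25.8 in Chelator, below MLX without overlap.

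The summed TPM of MYC, MYCN and MYCL was 179 ± 6.28 in DMSO and 154 ± 14.0 in Chelator (SD, n = 3). For MXD1, MXD3, MXD4, MXI1 and MNT together it was 46.0 ± 4.95 and 67.5 ± 5.34 TPM. The ratio of the MYC family to these antagonists was 4.09, 3.59 and 4.03 in DMSO, against 2.25, 2.21 and 2.40 in Chelator. The ratios of the groups did not overlap, and DMSO 2 was the DMSO library nearest to Chelator. The ratio of MYC to MXD1 alone was 31.4 ± 3.27 in DMSO and 11.0 ± 1.28 in Chelator (SD, n = 3). These are ratios of mRNA, and protein was not measured in these files.

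**Figure D3:**
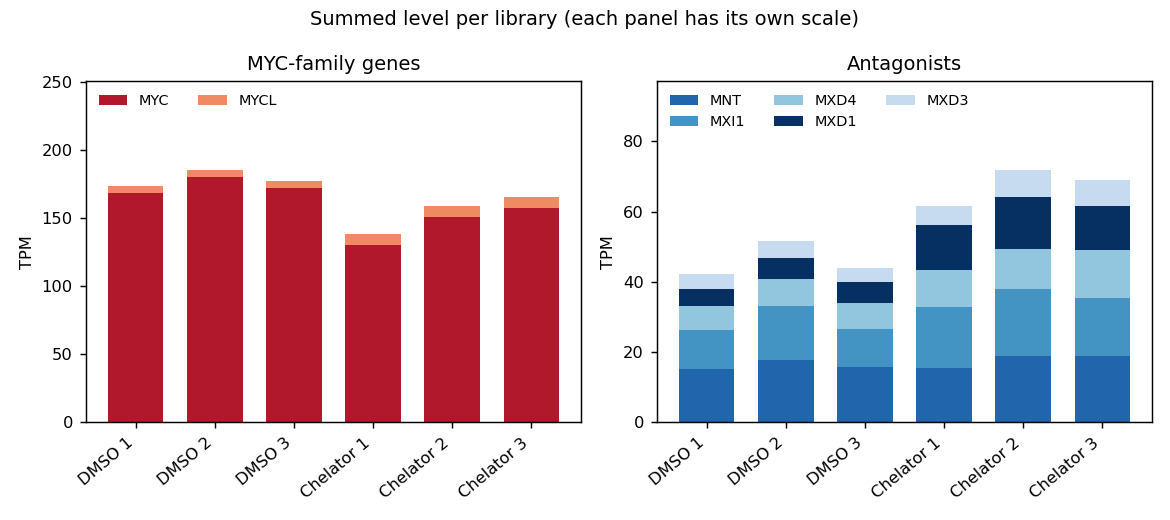
Summed TPM of the MYC family (left) and of the antagonists (right) in each of the 6 libraries, as stacked bars from 0 with a scale for each panel. The antagonist bars reach 61.6 to 72.0 TPM in Chelator and 42.4 to 51.6 TPM in DMSO, and the dark MXD1 segment grows most.

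Each gene is carried by several transcripts, whose usage was compared to ask whether the gene-level changes hid a shift between them. With edgeR's diffSpliceDGE in quasi-likelihood form, 0 of the 9 members met the rule of an adjusted Simes p under 0.05 with a share change above 5 percentage points, which 9.26% of 11938 tested genes met. MLX alone passed the p (adjusted p = 0.0115, edgeR), also the single member with an unadjusted p under 0.05, with a largest share change of 2.96 points. In limma's diffSplice, 3 members were called (MNT, MXD1 and MYCL), and edgeR's likelihood ratio form, which was run before the quasi-likelihood form was settled on, called 0, with MAX, MLX and MYC past the adjusted p.

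MXI1 had the largest share changes. MXI1-201, a protein-coding transcript, held 50.6%, 36.1% and 55.0% of the gene's TPM in DMSO and 27.0%, 29.5% and 30.0% in Chelator. The groups did not overlap, and DMSO 2 was the nearest to Chelator. The 664-base MXI1-226 held 0%, 20.5% and 0% in DMSO and 16.9%, 21.1% and 35.6% in Chelator, so DMSO 2 again resembled the Chelator libraries. Without DMSO 2 the changes in mean share were -24.0 points for MXI1-201 and 24.6 points for MXI1-226. For MXI1 the adjusted Simes p in edgeR was 1.0 with all libraries and went as low as 8.51e-04 when 1 library was left out. Transcripts starting at the upstream MXI1 promoter (chr10:110207605-110207684) were at 2.66 ± 0.53 TPM in DMSO and 3.96 ± 0.64 in Chelator, and those from the downstream starts (from chr10:110225993) at 9.68 ± 2.11 and 13.6 ± 1.53 TPM (SD, n = 3). The groups overlapped at neither start.

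MXD1-201 held 50.9 ± 1.94% of MXD1 TPM in DMSO and 38.5 ± 4.76% in Chelator (SD, n = 3), with MXD1-206 going from 42.1 ± 4.73% to 51.0 ± 5.08%. Both encode protein, and the groups overlapped for MXD1-206 only. In MYCL, the shortest transcript shown here, MYCL-201, went from 20.3 ± 2.75% to 31.5 ± 1.60%. In MNT the largest change was that of MNT-204, a 556-base transcript with no defined coding sequence, which went from 11.7 ± 3.97% to 22.2 ± 3.93% of TPM without overlap, and from 1.56% to 3.31% of the estimated counts. The retained-intron transcripts MNT-205 and MNT-209 went from 17.4 ± 2.52% to 10.3 ± 2.50% and from 18.6 ± 1.85% to 11.7 ± 0.763% of TPM while the main protein-coding MNT-201 went from 39.6 ± 1.01% to 44.5 ± 3.89%, and the groups overlapped for none of these. The shares are given as descriptions, since edgeR called none of MXD1, MYCL and MNT, whereas limma's diffSplice called all 3.

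MAX-209, which retains an intron, held 47.8 ± 1.66% of MAX TPM in DMSO and 50.6 ± 0.913% in Chelator (SD, n = 3), but 5.72% and 8.43% of the estimated MAX counts. Its effective length was 82.8 bases in DMSO and 131 in Chelator, so its TPM depends strongly on fragment length, which differed between the groups. The protein-coding transcript MAX-205 held 23.5 ± 4.41% of TPM in DMSO and 22.1 ± 1.41% in Chelator (SD, n = 3), and the groups overlapped. MYC-202 held 52.7%, 53.6% and 43.6% of MYC TPM in DMSO and 49.8 ± 2.63% in Chelator (SD, n = 3), and MLX-203 held 72.0 ± 1.04% and 70.9 ± 3.37% of MLX TPM (SD, n = 3). The groups overlapped for both. The change in mean share was -0.22 points for MYC-202, turning positive without DMSO 1, DMSO 2 or Chelator 3 (-3.41 to 1.61 with 1 library left out), and -1.13 points for MLX-203, turning positive without Chelator 2 (-2.73 to 0.62).

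**Figure D4:**
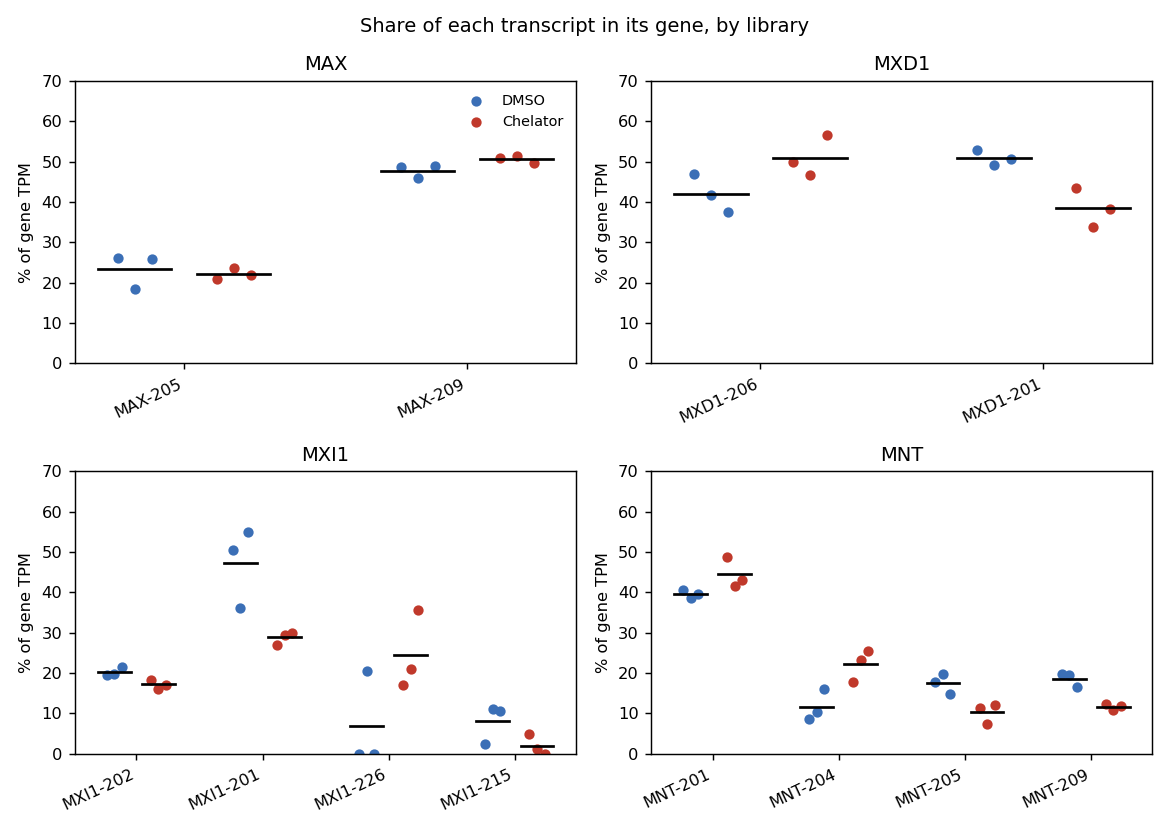
Share of each transcript in the summed TPM of MAX, MXD1, MXI1 and MNT, in percent, for each DMSO library (blue) and Chelator library (red), with the mean of 3 libraries as a black line. MXI1-201 averages 47.2% in DMSO and 28.8% in Chelator, and MXI1-226 is at 0% in 2 DMSO libraries but at 20.5% in DMSO 2.

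The protein-coding genes most like MYC across the 6 libraries, by the root mean square difference in log2 normalized count after centring on DMSO, were C15orf61, GET1 and RAB5C, at 0.022, 0.023 and 0.024 log2 units among 9653 genes. They share these 6 libraries with MYC, and nothing beyond likeness was measured.

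The 3 further partners of MAX and MLX were MGA, MLXIPL and MLXIP, of which 2 were higher and 1 was lower. Across all genes 19.5% were higher and 18.3% lower at an adjusted p under 0.05. MGA, a repressor that pairs with MAX (chr15:41621134-41773081, plus strand), had 8368, 12322 and 8989 normalized counts in DMSO and 5462, 4645 and 5212 in Chelator. The groups did not overlap and DMSO 2 was the highest. Its log2 fold change was -0.95 ± 0.13 (SE, DESeq2 adjusted p = 9.96e-13), and -0.77 without DMSO 2. MLXIPL (ChREBP) had 309, 253 and 390 normalized counts in DMSO and 880, 1113 and 1235 in Chelator, which put its log2 fold change at 1.77 ± 0.18 (SE, DESeq2 adjusted p = 6.46e-22). MLXIP (MondoA) was at 0.21 ± 0.081 (SE, DESeq2 adjusted p = 0.0243), a call lost after centring on the mean, without the length correction and without DMSO 1, DMSO 3, Chelator 1 or Chelator 2, with values from 0.023 to 0.21.

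Genes known as targets of MondoA and MLX were higher or did not pass. Of 6, 4 rose and 0 fell, with a median log2 fold change of 1.22 against 0.016 for all genes. KLF10, a TGF-beta responsive repressor, rose by 1.76 ± 0.093 on the log2 scale, ARRDC4, an arrestin-like regulator of glucose uptake, by 1.57 ± 0.086 and its relative ARRDC3 by 1.29 ± 0.10 (SE, DESeq2 adjusted p = 1.48e-76, 1.12e-72 and 7.27e-34). TXNIP, the most studied target, rose by 1.14 ± 0.067 (SE, DESeq2 adjusted p = 8.36e-63) and was chosen for mention after its value was seen. After centring on the mean TXNIP was at 0.95, under the fold threshold. HK2, a hexokinase, and PFKFB3 did not pass, at -0.19 and 0.15.

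Genes that MYC is known to activate were mostly lower. Of 30, 20 fell, 5 rose and 5 did not pass, where 18.3% of all genes were lower and 19.5% higher. The median log2 fold change was -0.37, against 0.016 for all genes, and -0.57 after centring on the mean. POLR1B, a subunit of RNA polymerase I, fell by 1.45 ± 0.083 on the log2 scale, TERT, the catalytic telomerase subunit, by 1.42 ± 0.14 and SRM, spermidine synthase, by 1.18 ± 0.076 (SE, DESeq2 adjusted p = 1.01e-65, 2.63e-21 and 4.79e-52). The fall of TERT was smaller without the length correction (-0.64), with protein-coding transcripts only (-0.73) and with transcripts of at least 500 bases (-0.58), and its average effective length was 2455 bases in DMSO and 4240 in Chelator. Among those that rose, LDHA, lactate dehydrogenase, changed by 1.01 ± 0.076 and E2F1, a cell cycle factor, by 0.59 ± 0.11 (SE, DESeq2 adjusted p = 3.54e-38 and 1.97e-07). The direction of NPM1, a nucleolar chaperone, depended on the transcripts counted and on the length correction. Its log2 fold change was 0.39 ± 0.089 (SE, DESeq2 adjusted p = 7.19e-05) but -0.35 without the length correction, -0.41 with protein-coding transcripts only and -0.45 with transcripts of at least 500 bases, each past the threshold in DESeq2 (adjusted p = 1.68e-06, 2.93e-11 and 5.07e-09), and 0.19 after centring on the mean, where it did not pass. Its average effective length was 931 bases in DMSO and 559 in Chelator. LDHA, also a known target of hypoxia-inducible factors, was at 0.82 after centring on the mean and 0.79 without the length correction, under the fold threshold.

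Genes that MYC is known to repress were higher or did not pass. Of 16 listed, CDKN2B was too low to test, and of the 15 tested 11 rose, 0 fell and 4 did not pass, with a median log2 fold change of 1.36. NDRG1, a stress-induced growth regulator, had 136, 181 and 174 normalized counts in DMSO and 4604, 2979 and 3437 in Chelator, which put its log2 fold change at 4.49 ± 0.17 (SE, DESeq2 adjusted p = 3.81e-160). CDKN1A, the cyclin-dependent kinase inhibitor p21, rose by 3.51 ± 0.11 and THBS1, an extracellular matrix glycoprotein, by 3.09 ± 0.51 on the log2 scale (SE, DESeq2 adjusted p = 1.39e-221 and 1.61e-08). Several of these genes are also known targets of other factors, such as hypoxia-inducible factors for NDRG1.

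**Figure D5:**
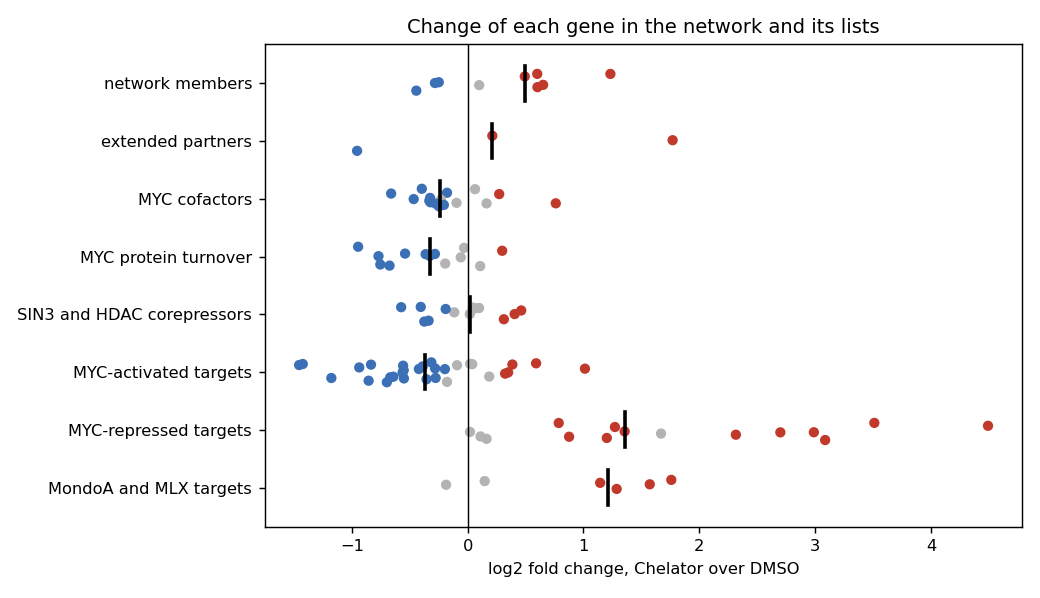
Log2 fold change of each tested gene of the network and of 7 further lists, with genes past the adjusted p in red (higher) or blue (lower), the others in grey, and the median of each list as a black line. The MYC-activated genes lie mostly below 0 with a median of -0.37, and the MYC-repressed genes lie above 0 with a median of 1.36.

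MYC works through cofactors that modify chromatin and release RNA polymerase II. Of 16 such genes, 10 were lower, 2 were higher and 4 did not pass, where 18.3% of all genes were lower and 19.5% higher. The lower genes numbered 7 to 9 with 1 library left out and 7 to 12 across 17 alternatives. The median log2 fold change was -0.24, against 0.016 for all genes, and -0.43 after centring on the mean. HCFC1, a scaffold that binds MYC, fell by 0.66 ± 0.064 on the log2 scale, BPTF, a chromatin remodelling subunit, by 0.47 ± 0.097 and MYCBP, a MYC-binding protein, by 0.40 ± 0.097 (SE, DESeq2 adjusted p = 1.11e-23, 9.54e-06 and 2.22e-04). BPTF was at -0.30 in a fit without GC content and length trends. ZBTB17, the partner known as MIZ1 through which MYC represses genes, rose by 0.76 ± 0.10 (SE, DESeq2 adjusted p = 4.90e-12). The elongation factor SUPT5H was at 0.27 ± 0.070 (SE, DESeq2 adjusted p = 4.30e-04), a call lost after centring on the mean (0.078), without the length correction (0.091) and in a fit that took out GC content and length trends (0.13).

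Of 13 genes that set the stability of MYC protein, 8 were lower, 1 was higher and 4 did not pass. Among all genes 18.3% were lower and 19.5% higher. The lower ones numbered 7 to 9 with 1 library left out. The median was -0.33, and -0.52 after centring on the mean. This list mixes ubiquitin ligases with a deubiquitinase and a stabilising kinase, so its count and median give no direction for MYC protein. The ubiquitin ligase subunit SKP2 fell by 0.95 ± 0.071 and the deubiquitinase USP28 by 0.75 ± 0.083 on the log2 scale (SE, DESeq2 adjusted p = 2.15e-38 and 2.96e-18). The ligase HUWE1 was at -0.77 ± 0.30 (SE, DESeq2 adjusted p = 0.0281), but DMSO 2 held 74364 normalized counts against 40872 and 43683 in the other DMSO libraries, and without it the value was -0.45. Its call was lost without Chelator 1, Chelator 2 or Chelator 3, with DESeq2 adjusted p of 0.0903, 0.103 and 0.142. AURKA, a kinase that stabilises MYC-family proteins, rose by 0.30 ± 0.072 (SE, DESeq2 adjusted p = 1.62e-04), a rise of 0.10 that did not pass after centring on the mean.

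The corepressors that MXD proteins recruit went both ways. Of 13, 3 were higher, 5 were lower and 5 did not pass, where 19.5% of all genes were higher and 18.3% lower. The lower ones numbered 4 to 5 with 1 library left out. The median of 0.019, close to that of all genes, lay between -0.18 and 0.064 across the alternatives. The deacetylase HDAC2 fell by 0.57 ± 0.069, the scaffold SIN3A by 0.40 ± 0.091 and the histone-binding RBBP4 by 0.37 ± 0.081 on the log2 scale (SE, DESeq2 adjusted p = 1.89e-15, 5.05e-05 and 2.19e-05). HDAC1 was at 0.31 ± 0.072, SAP18 at 0.41 ± 0.10 and ARID4A at 0.46 ± 0.14 (SE, DESeq2 adjusted p = 7.84e-05, 2.68e-04 and 0.0037). RBBP4 was at -0.57 after centring on the mean, -0.63 without the length correction and -0.75 with protein-coding transcripts only. None of the 3 higher genes passed after centring on the mean, with HDAC1 at 0.12, SAP18 at 0.21 and ARID4A at 0.27, HDAC1 also did not pass without the length correction at 0.13, and ARID4A also did not pass without DMSO 1 or Chelator 1, at 0.34 each. With protein-coding transcripts only HDAC1 was at 0.55, and with transcripts of at least 500 bases SAP18 was at 0.26.

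Of 10 noncoding genes listed beside the network, 6 were in the annotation and 3 had enough counts. PVT1, the long noncoding neighbour of MYC, had 2698, 2265 and 2561 normalized counts in DMSO and 3663, 3796 and 3826 in Chelator. The groups did not overlap, and the log2 fold change was 0.58 ± 0.089 (SE, DESeq2 adjusted p = 5.15e-10), the opposite direction to MYC, and 0.39 after centring on the mean. CASC11, which shares sequence with MYC, had 0 counts throughout DMSO but 5, 19 and 9 under chelation, at least 3.29-fold higher against a floor of 3 counts per library that covers counting error only. It had enough counts only through the Chelator libraries, so no test is given for it. PCAT1 did not pass. The libraries are not stated to keep strand, so reads of overlapping antisense genes cannot be told apart.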

How the data were processed

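Polyadenylated RNA of 6 K562 libraries was sequenced as paired-end reads. The authors quantified it with salmon (1.10.2 per the submitters' processing notes), and the deposited files give, for 252045 transcripts, an estimated count that may be fractional and a TPM value, the authors' estimated count per effective length scaled to the same sum in each library. Salmon's bias options and library strandedness are not given in the sources used here. Groups came from the sample titles.

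Identifiers were looked up in GENCODE release 44 (GRCh38). There, 251142 were found in the same version and 470 in another, while 433 had no match (0.139% to 0.150% of counts) and were left out. Expected counts were summed per gene and rounded. DESeq2 (1.42.0) compared Chelator with DMSO over 26074 genes with a total above 10, with median-ratio size factors and an average transcript length offset. An adjusted p was given for 24542 genes, and a missing one stayed missing. A call needed an adjusted p under 0.05 together with a log2 fold change beyond 1 in size. Normalized counts are divided by the size factor and length offset.

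Transcript usage was tested with edgeR (4.0.16) diffSpliceDGE on transcripts that reached 10 counts in 3 or more libraries. The likelihood ratio form was run first and called 2278 genes; the quasi-likelihood form, which called 1105, was adopted after that result had been seen, and both are reported. Neither called a member. The 31-base stretches are those of the annotated transcripts. They were searched for, on either strand, only in transcripts with a total of at least 10 estimated counts. Both procedures were tested on simulated data.

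The genes named were the members, the 3 partners MGA, MLXIP and MLXIPL, and in each list up to 3 genes with the largest rise and fall among those past the adjusted p with a mean of at least 100 normalized counts; transcripts needed a share of at least 10% in a group, and genes like MYC a mean of at least 500. The members and lists were chosen with earlier results of these data known, so no list is independent evidence. Alternatives covered edgeR's quasi-likelihood test, limma (3.58.1), other size factors, filters, transcripts, GC and length trends, the replicate number as a block and leaving out each library. The restriction to transcripts of at least 500 bases at gene level and the likelihood ratio form were added after seeing the data.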

Additional observations from a re-analysis of the deposited data

How the results depend on the processing

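Across 17 alternatives MYC, MYCL, MAX, MXD1 and MXD4 kept their direction and an adjusted p under 0.05 (DESeq2 or edgeR). For MXI1 the value was 0.16 (DESeq2 adjusted p = 0.121) without the length offset, whose construction leaves out the change in transcript length. MNT turned to -0.095 under centring on the mean, -0.088 with GC content and length trends removed and -0.091 with those trends removed and the replicate block, and passed at 0.28 with protein-coding transcripts only; the cause was not tested. With 1 library left out, MYC lay between -0.34 and -0.22, MAX between -0.50 and -0.37, MLX between -0.31 and -0.20, MXD1 between 1.17 and 1.33, MXD3 between 0.52 and 0.73, MXD4 between 0.55 and 0.71, MXI1 between 0.43 and 0.58, MYCL between 0.58 and 0.62 and MNT between 0.056 and 0.17. In these fits the members past the adjusted p numbered 5 higher and 2 to 3 lower. Of the other alternatives, 4 were higher without the length offset and with the replicate block and trends removed, and 6 with protein-coding transcripts only.

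Over all genes 2646 were called, 75.9% of them higher; under centring on the mean it was 57.5% of 2720. Leaving out 1 library gave 2207 to 2607, and DESeq2's Wald test against an absolute log2 fold change of 1 gave 674, with 0 members called. The partners numbered 1 higher in place of 2 under centring or without the length offset, and 1 to 2 with a library left out. Of the noncoding genes PVT1 alone is a usable call, and it passed wherever it was tested; the count over the list also takes in CASC11, whose adjusted p is void because it met the count minimum through Chelator alone, and was 1 higher with at least 10 counts in 3 libraries, 0 with protein-coding transcripts only, and 1 to 2 with a library left out, where DESeq2 gave CASC11 no adjusted p without Chelator 2. Usage calls over all genes were 3192 in limma, 2278 in edgeR's likelihood ratio form, 734 at 10 percentage points and 542 to 1066 with a library left out, against 1105; for the members they were 3 in limma and 0 to 1 with a library left out.

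The replicate numbers were not taken to pair the samples. Same-numbered samples had deviations correlated at -0.075, 0.13 and 0.10 over 13492 genes. DMSO 2 and DMSO 3 were closest to the Chelator sample of the same number, but DMSO 1 was closer to Chelator 3 (0.082). With 3 libraries per group, these values cannot show whether the samples were paired. With the replicate number as a block, 2345 genes were called and HUWE1 no longer passed (DESeq2 adjusted p = 0.12); with the block and with GC content and length trends removed, MXD3 was at 0.34 (DESeq2 adjusted p = 0.0971). Reads shared with neighbouring genes limit MXD3, MLX and MAX most, and 3 libraries per group limit the precision.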
